A study of Mus with 21 samples.

Results

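The genes described here are 10 of the 18806 genes counted in the libraries, chosen by symbol for their known part in antigen presentation to helper T cells and in dendritic and Langerhans cells. They are the MHC class II chain genes H2-Aa, H2-Ab1 and H2-Eb1, the invariant chain gene Cd74, the class II regulator Ciita, the lectin genes Cd209a and Cd207, the receptor genes Flt3 and Ccr7, and the chemokine gene Ccl22. RNA was measured in skin wounds of wild-type C57BL/6 mice, female and 8 weeks old, 4 days after a full-thickness punch wound with a diameter of 8 mm. Wounds were made on both sides of the back of 21 mice in all, and the RNA is that of the whole wound tissue. The labels name biological replicates and do not say which mouse or which side each library came from. Whether libraries of a group share a mouse is therefore not known. The 21 libraries fell into 7 groups of 3: a control, which was wounded and received no hydrogel scaffold, and wounds filled with GelMA, a light-crosslinked gelatin hydrogel, of pH 6.4, 7.4 or 8.4 loaded with 200 ng of acidic (aFGF) or basic (bFGF) fibroblast growth factor. The hydrogel groups are named 6.4/aFGF, 7.4/aFGF, 8.4/aFGF, 6.4/bFGF, 7.4/bFGF and 8.4/bFGF. As none was a hydrogel without growth factor, the effect of the gel and that of the growth factors cannot be told apart against the control.

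Dendritic cells, and Langerhans cells in the epidermis, take up proteins, cut them into peptides and show the peptides on MHC class II molecules to CD4 T cells. A class II molecule is a pair of an alpha and a beta chain, which the invariant chain escorts from the endoplasmic reticulum to the endosome, and Ciita is the coactivator that switches on the genes of all of these proteins together. Macrophages and B cells carry class II as well, so these transcripts alone do not name a cell. A dendritic cell that leaves the skin for the lymph node raises Ccr7, and mature dendritic cells are a known source of Ccl22.

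All 10 genes were detected in every library, and all passed the filter on low counts in each of the 10 comparisons made. On the FPKM scale, which divides reads by gene length and library size and so lets genes be compared, Cd74 had the highest mean of the 10 over the 21 libraries, 911 ± 586 FPKM (SD, n = 21). The chain genes H2-Ab1, H2-Aa and H2-Eb1 followed at 530 ± 361, 509 ± 333 and 290 ± 210 FPKM. Far below them stood Cd209a at 12.7 ± 6.63, Ccl22 at 9.60 ± 7.21, Ccr7 at 8.25 ± 3.80, Ciita at 3.26 ± 1.87, Cd207 at 2.82 ± 1.93 and Flt3 at 1.37 ± 0.413 FPKM. The rarest of them in reads was Cd207, with 28 to 397 counts per library, still above the 3 counts that a count of 0 would allow.

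Total counts per library lay between 34362558 and 37817833, so depth differed little. Of the 16 genes listed for dendritic cell identity all were detected, with a summed level of 676 to 1147 CPM (counts scaled to library size with the TMM factors of edgeR), and 2 of them stayed under a mean of 1 CPM. The list ran from Clec10a, a lectin that macrophages also carry, at 104 FPKM to Xcr1, the receptor that marks cross-presenting dendritic cells, at 0.193 FPKM. The 8 genes listed for Langerhans cells were all detected too, from Csf1r, shared with macrophages, at 177 FPKM to the integrin gene Itgae at 1.07 FPKM. Genes of both lists were thus detected beside the 10 genes, though the highest gene of each list is shared with macrophages. Detection in whole-wound RNA does not by itself name the cells that held these transcripts. Other cells that could carry class II were present to different degrees. The 10 macrophage genes summed to 4704 to 10681 CPM, with Lyz2 highest at 3411 FPKM and Mertk lowest at 8.83 FPKM, whereas 6 of the 8 B cell genes had means under 1 CPM, the sum of the list was 7.58 to 15.9 CPM, and its levels ran from Cd79b at 1.73 FPKM to Pax5 at 0.0276 FPKM. In whole-wound RNA, fewer cells of a type and less RNA per cell cannot be told apart. Markers of neighbouring tissue differed between libraries: the sum of 8 skeletal muscle genes ran from 259 to 16713 CPM (Acta1 highest at 1350 and Myh1 lowest at 61.7 FPKM), that of 8 adipocyte genes from 493 to 9824 CPM (Fabp4 at 1124 and Lep at 9.97 FPKM) and that of 8 epidermis genes from 1781 to 5289 CPM (Krt14 at 1214 and Trp63 at 6.79 FPKM). Their median correlations with the class II level described below were 0.15, -0.12 and 0.04 (Pearson, n = 21 libraries). In 3 libraries something else stood out: the replicate 3 of 7.4/aFGF, the replicate 2 of 8.4/aFGF and the replicate 2 of 8.4/bFGF held 24, 28 and 95 genes that were high in that library alone, against at most 2 in any other library, and 0 of the genes listed here were among them.

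The 3 class II chains and the invariant chain went up and down together from library to library. H2-Aa, the alpha chain of the I-A molecule, stood at 634, 1099 and 526 CPM in the control libraries. In the aFGF groups it was at 276, 375 and 763 CPM at pH 6.4, at 2076, 540 and 576 CPM at pH 7.4 and at 578, 665 and 424 CPM at pH 8.4. In the bFGF groups it was at 338, 429 and 581 CPM at pH 6.4, at 329, 336 and 467 CPM at pH 7.4 and at 380, 230 and 560 CPM at pH 8.4. The replicate 1 of 7.4/aFGF was thus far above its 2 fellow libraries, the control replicate 2 came next, and the lowest value was that of the replicate 2 of 8.4/bFGF. Between the group means, the highest was 2.82 times the lowest, while within 7.4/aFGF alone the highest library was 3.84 times the lowest.

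H2-Ab1 encodes the beta chain that pairs with the product of H2-Aa, and its level divided by that of H2-Aa in the same library ranged only from 1.01 to 1.25 over the 21 libraries. H2-Eb1, the beta chain of the I-E molecule, was at 0.761 to 0.920 times the H2-Aa level, and Cd74 at 2.01 to 2.61 times. These are ratios of CPM, not corrected for gene length, and they moved by at most 1.30-fold while H2-Aa itself moved 9.04-fold. C57BL/6 mice have no functional alpha chain for H2-Eb1 to pair with: the gene H2-Ea, annotated as a transcribed pseudogene in RefSeq, was not analysed here. The correlations among the 4 genes on the log2 CPM scale were all about 0.99 (Pearson, n = 21 libraries, for example 0.994 for H2-Aa with H2-Ab1, Spearman 0.984, and 0.988 without the 2 libraries farthest from the median class II level). Libraries share the normalization and the mix of cells in the wound, so these are descriptions of how the samples varied and are given without a test.

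**Figure D1:**
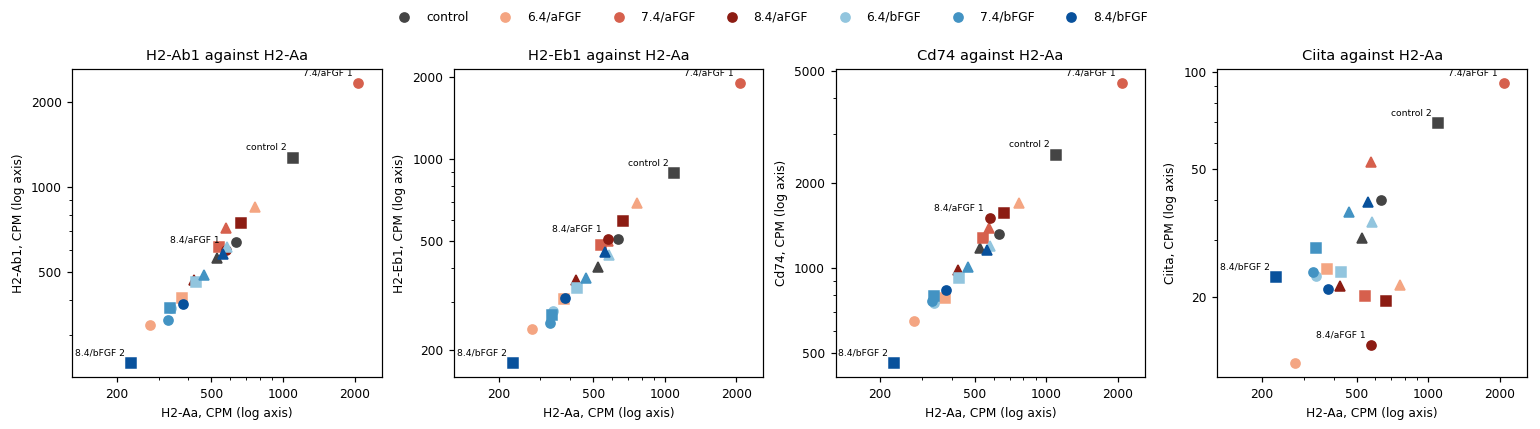
Levels of H2-Ab1, H2-Eb1, Cd74 and Ciita (vertical axes, CPM, log axes) against H2-Aa (horizontal axes, CPM, log axes), 1 point per library, coloured by group, with circles, squares and triangles for replicates 1, 2 and 3. The 3 genes on the left follow H2-Aa closely from 230 to 2076 CPM, while the ratio of Ciita to H2-Aa spans 4.07-fold over the 21 libraries.

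Ciita, the regulator of these genes, followed them only loosely. It stood at 40.0, 69.2 and 30.4 CPM in the control. In the aFGF groups it was at 12.5, 24.4 and 21.8 CPM at pH 6.4, at 92.4, 20.2 and 52.5 CPM at pH 7.4 and at 14.2, 19.3 and 21.6 CPM at pH 8.4. In the bFGF groups it was at 23.3, 23.9 and 34.2 CPM at pH 6.4, at 23.8, 28.4 and 36.7 CPM at pH 7.4 and at 21.2, 23.0 and 39.4 CPM at pH 8.4. The 2 libraries with the most class II RNA also had the most Ciita, but the rest had no such order: the replicate 1 of 8.4/aFGF had the least Ciita for its H2-Aa and the replicate 2 of 8.4/bFGF the most, a 4.07-fold spread of the ratio. The correlation of Ciita with the mean of the 4 class II genes was 0.67 (Pearson, n = 21), with a Spearman value of 0.37, and 0.50 without the 2 farthest libraries, which were the replicate 1 of 7.4/aFGF and the replicate 2 of 8.4/bFGF.

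The factors that bind class II promoters had no common relation to the class II level. Over the 7 genes listed (the RFX and NF-Y subunits and Creb1), the median correlation with the class II mean was 0.07. Single values ran from -0.31 for Rfxank to 0.42 for Nfya. By level, the list ran from Nfya at 15.4 FPKM to Rfx5 at 1.36 FPKM. Over the 11 genes of peptide loading and processing in the files the median was 0.70, and over the 12 genes of the MHC class I pathway it was 0.82. Without the 2 farthest libraries the medians of these 3 lists were 0.15, 0.48 and 0.67. The genes most like the class II mean among 15801 candidates were H2-DMb1, which with H2-DMa encodes the molecule that exchanges the invariant chain peptide (r = 0.93), B2m, the light chain of class I (0.92), H2-DMa (0.92), Cd2, an adhesion molecule of T cells (0.92), and the class I heavy chain H2-K1 (0.92). Without the 2 farthest libraries these values were 0.83, 0.84, 0.84, 0.81 and 0.80.

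Markers of T cells were highest in the 2 libraries with the most class II RNA. The 7 T cell genes in the files summed to 157 CPM in the replicate 1 of 7.4/aFGF, to 63.7 CPM in the control replicate 2 and to 21.9 to 49.2 CPM in the other libraries, with Cd4 highest of the list at 5.35 FPKM and Cd8a lowest at 0.412 FPKM. Their median correlation with the class II mean was 0.78, against 0.55 for the macrophage list, 0.29 for the B cell list and 0.04 for the epidermis list. The median Spearman value was 0.58 for T cells and 0.56 for macrophages, and without the 2 farthest libraries the median Pearson values were 0.58 and 0.43. Whether the T cell share has a part in the class II levels was not tested.

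**Figure D2:**
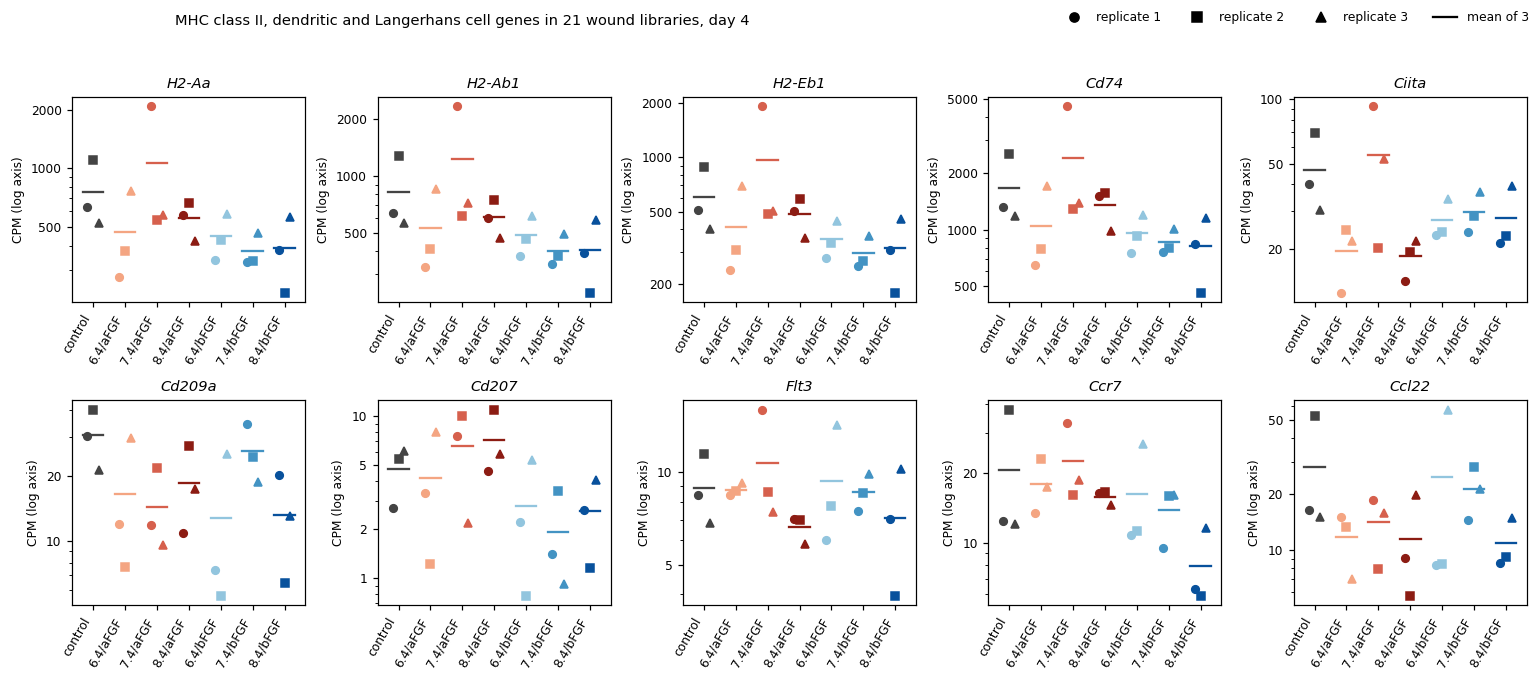
CPM of each of the 10 genes (vertical axes, log) in the 7 groups, with a marker for each of the 3 libraries and a line at their mean. In every panel the libraries of the widest group span a larger fold than the group means do (3.84 against 2.82 for H2-Aa), and the replicate 1 of 7.4/aFGF (2076 CPM for H2-Aa) and the control replicate 2 (1099 CPM) are the highest in the 4 class II panels.

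The lectin Cd209a, a mouse relative of human DC-SIGN that is found on monocyte-derived and dermal dendritic cells, showed a pattern of its own. It stood at 30.5, 40.1 and 21.2 CPM in the control. In the aFGF groups it was at 12.0, 7.62 and 29.9 CPM at pH 6.4, at 11.8, 21.6 and 9.68 CPM at pH 7.4 and at 11.0, 27.4 and 17.4 CPM at pH 8.4. In the bFGF groups it was at 7.41, 5.64 and 25.2 CPM at pH 6.4, at 34.6, 24.5 and 18.6 CPM at pH 7.4 and at 20.2, 6.48 and 13.1 CPM at pH 8.4. The control had the highest mean, 17 of the 18 hydrogel libraries lay below the control median, and the groups still overlapped. In the library with the most class II RNA, the replicate 1 of 7.4/aFGF, Cd209a was low for its H2-Aa, and the ratio of the 2 genes spanned 18.4-fold over the 21 libraries. The 6 other genes of the CD209 family in the files, of which Cd209f was highest at 77.4 FPKM and Cd209c lowest at 1.58 FPKM, summed to 74.8 CPM in that library against 331 to 409 CPM in the control libraries, and the lowest sum of all, 74.3 CPM, was in 8.4/aFGF. Genes of this family resemble each other in sequence, so reads can be split between them.

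Cd207 encodes langerin, the lectin of the Birbeck granules of Langerhans cells. Its levels were 2.72, 5.44 and 6.07 CPM in the control. In the aFGF groups they were 3.35, 1.23 and 7.94 CPM at pH 6.4, 7.59, 9.98 and 2.20 CPM at pH 7.4 and 4.62, 11.0 and 5.84 CPM at pH 8.4. In the bFGF groups they were 2.24, 0.778 and 5.37 CPM at pH 6.4, 1.41, 3.44 and 0.915 CPM at pH 7.4 and 2.64, 1.16 and 4.01 CPM at pH 8.4. The 4 libraries above the highest control value were all aFGF libraries. At pH 8.4 the 3 aFGF libraries lay above the 3 bFGF libraries, whereas the groups overlapped at pH 6.4 and at pH 7.4. The share of all genes with such a separation was not counted. Among the genes most like Cd207 over the 21 libraries were Krt77, a keratin of the upper epidermis and sweat ducts (r = 0.88, and 0.87 without the 2 farthest libraries), Gprin2 (0.84), Rdh9 (0.83) and Acsl5 (0.83). Cd207 correlated with the class II mean at 0.59, and how much epidermis each wound sample held was not tested.

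Flt3, the receptor through which Flt3 ligand sustains dendritic cells and their precursors, was the steadiest of the 10. It stood at 8.42, 11.5 and 6.82 CPM in the control, and its group means ran from 6.63 CPM in 8.4/aFGF to 10.7 CPM in 7.4/aFGF. Its highest library was again the replicate 1 of 7.4/aFGF, at 16.0 CPM, and its lowest the replicate 2 of 8.4/bFGF, at 3.95 CPM.

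Ccr7, the receptor that leads dendritic cells and T cells towards Ccl19 and Ccl21, stood at 12.5, 37.8 and 12.0 CPM in the control. In the aFGF groups it was at 13.5, 23.1 and 17.5 CPM at pH 6.4, at 33.1, 16.1 and 18.7 CPM at pH 7.4 and at 16.4, 16.6 and 14.6 CPM at pH 8.4. In the bFGF groups it was at 10.8, 11.2 and 26.8 CPM at pH 6.4, at 9.46, 16.0 and 16.1 CPM at pH 7.4 and at 6.28, 5.89 and 11.6 CPM at pH 8.4. The 3 libraries of 8.4/aFGF lay above the 3 of 8.4/bFGF, and 1 library stood out in the control, in 7.4/aFGF and in 6.4/bFGF. As for Cd207, the share of all genes so separated was not counted. The genes most like Ccr7 were Bcl2a1d (r = 0.92) and Bcl2a1b (0.89), near-identical copies between which reads can be split and which encode survival proteins of blood cells, the beta-glucan receptor gene Clec7a (0.88), Gpr174 (0.88) and Sh3bgrl3 (0.85). Without the 2 libraries farthest from the median, Bcl2a1d stayed at 0.92.

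Ccl22, which draws Ccr4-bearing T cells, was the most uneven of the chemotactic pair. It stood at 16.4, 52.5 and 15.2 CPM in the control. In the aFGF groups it was at 15.2, 13.4 and 7.05 CPM at pH 6.4, at 18.7, 7.98 and 15.9 CPM at pH 7.4 and at 9.06, 5.71 and 19.9 CPM at pH 8.4. In the bFGF groups it was at 8.38, 8.48 and 57.2 CPM at pH 6.4, at 14.5, 28.3 and 21.3 CPM at pH 7.4 and at 8.60, 9.28 and 14.9 CPM at pH 8.4. The control replicate 2 and the replicate 3 of 6.4/bFGF held over 50 CPM each, and every other library was under 30 CPM. The same 2 libraries were high for Ccr7, with an overall correlation of the pair of 0.55 (Spearman 0.33, n = 21). Among the 5 genes listed for the receptor of Ccl22 and its T cells, Il2ra was highest at 2.14 FPKM and Ccr4 itself lowest at 0.208 FPKM.

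The 7 group means were first compared in one model for each gene over all 21 libraries. In the order of means, 7.4/aFGF was highest for the 4 class II genes, Ciita, Flt3 and Ccr7, the control was highest for Cd209a and Ccl22, and 8.4/aFGF was highest for Cd207. For each of the 10 genes, every group in this order overlapped its next neighbour. Groups farther apart in the order need not overlap. For example, the libraries of 7.4/aFGF lay above those of 7.4/bFGF for the 4 class II genes. For H2-Aa the lowest aFGF library was at 540 CPM and the highest bFGF library at 467 CPM. The share of all genes so separated was not counted. The quasi-likelihood test of edgeR called 0 of the 10 genes at a Benjamini-Hochberg adjusted p under 0.05 over 15811 genes, where it called 0.114% of all genes. At an unadjusted p under 0.05 it named 4 of the 10 (H2-Ab1, H2-Eb1, Cd74 and Ciita, with adjusted p of 0.171 to 0.227), beside 19.3% of all genes. DESeq2 called these same 4 genes, with adjusted p of 0.0141 for Ciita to 0.0386 for Cd74, beside 11% of all genes. Without the replicate 1 of 7.4/aFGF, the edgeR count at an unadjusted p under 0.05 was 1 of the 10, beside 15.7% of all genes. The 4 class II genes correlated with each other at about 0.99. Counts and medians over the 10, here and below, therefore do not rest on 10 independent genes.

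Against the control, the 6 hydrogel groups together had lower means for all 10 genes, but none of the differences passed the test. The largest were those of Ccl22 (log2 fold change -0.91, SE 0.485, adjusted p = 0.360), Cd209a (-0.91, SE 0.416, adjusted p = 0.287) and Ciita (-0.76, SE 0.310, adjusted p = 0.240), by edgeR. The 4 class II genes were at -0.48 to -0.56, and Flt3 was nearest to 0 at -0.09. A gene was called here where its log2 fold change was beyond 0.58 and its adjusted p under 0.05. On this rule, 0 of the 10 genes were called and 0.00632% of all genes, which is 1 gene. At an unadjusted p under 0.05, 2 of the 10 (Ciita and Cd209a) lay below the control, beside 16.7% of all genes in either direction, and DESeq2 called 0 of the 10 and 0.908% of all genes. The median log2 fold change of the 10 was -0.55, against -0.02 over all genes tested.

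The control replicate 2 carried much of this difference. Without it, the class II genes moved to -0.09 to -0.19, Ccl22 to -0.10, Flt3 to 0.13 and Ccr7 to 0.28, Cd209a to -0.67 and Ciita to -0.36, and 0 of the 10 had an unadjusted p under 0.05, beside 28.6% of all genes. Without the replicate 1 of 7.4/aFGF this count was 5 of the 10, beside 17.1% of all genes. With all libraries kept, the other lists were lower in the hydrogel groups in part. Negative values were found for 14 of the 16 dendritic cell identity genes, 11 of the 12 class I genes and all 6 of the other CD209 genes. Of these, 7, 6 and 1 had an unadjusted p under 0.05 by edgeR, beside 16.7% of all genes, with 0 called. Values of these lists without the control replicate 2 are not given. Among the dendritic cell genes, Mgl2, a lectin of dermal dendritic cells and macrophages, was named here after its values were seen. It was at 50.8, 38.8 and 88.6 CPM in the control and at 3.45 to 28.9 CPM in the 18 hydrogel libraries, so the groups did not overlap. The share of all genes without overlap in this contrast was not counted. Mgl2 was not called, at a log2 fold change of -1.83 (SE 0.398, edgeR adjusted p = 0.0849). Adipocyte genes were lower in the hydrogel groups as well, with a median of -1.45 over 8 genes, and their part in these differences was not tested.

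The pH 6.4 and pH 7.4 hydrogels loaded with aFGF are the pair whose RNA the study set side by side. The class II genes, Ciita and 4 of the other 5 genes had lower means in 6.4/aFGF, and the differences did not pass the test. H2-Aa differed by a log2 fold change of -1.17 (SE 0.635), with a 95% interval from -2.68 to 0.35 (edgeR adjusted p = 0.832). Ciita differed by -1.49 (SE 0.540, adjusted p = 0.832) and was the 1 gene of the 10 with an unadjusted p under 0.05, beside 4.99% of all genes. Calls were made for 0 of the 10 genes and for 0% of all genes, and DESeq2 called 0 of the 10 and 0.112% of all genes. Cd209a was the 1 gene with a positive value for 6.4/aFGF (0.21, SE 0.549). The median log2 fold change over the 10 was -0.91, against 0.02 over all genes tested.

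This contrast hung on the replicate 1 of 7.4/aFGF. Without that library the 4 class II genes were at -0.23 to -0.34, Ciita was at -0.88, and Flt3, Ccr7 and Ccl22 were at 0.14, 0.06 and 0.00415, with an unadjusted p under 0.05 for 0 of the 10, beside 2.48% of all genes. The list of T cell genes, which was high in the same library, had a median of -1.60 with 7 of 7 genes negative, and its part in the contrast was not tested.

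With bFGF the same step in pH gave smaller differences in the class II genes, of 0.18 to 0.28, and 8 of the 10 genes had higher means at pH 6.4. The largest difference was that of Cd209a, -1.01 (SE 0.590, edgeR adjusted p = 0.626), and it did not pass the test. The other 6 CD209 genes all had negative values too, with a median of -1.26, 4 of them at an unadjusted p under 0.05 and 0 called. So had all 8 adipocyte genes, with a median of -1.59 and 1 at an unadjusted p under 0.05, and all 8 skeletal muscle genes, with a median of -2.01 and 0 at that p, and 0 of these were called either. The part of these tissues in the CD209 values was not tested. Calls were made for 0 of the 10 genes and for 0% of all genes, and unadjusted p under 0.05 was found for 0 of the 10, beside 8.89% of all genes. DESeq2 called 0 of the 10 and 0.632% of all genes.

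Whether the step in pH acted differently with each growth factor was tested as an interaction. The difference between both contrasts was -1.37 to -1.49 for the class II genes, -1.37 (SE 0.638, adjusted p = 0.808) for Ciita and 1.22 (SE 0.886, adjusted p = 0.845) for Cd209a, by edgeR. The 95% interval of H2-Aa ran from -3.08 to 0.22. Calls were made for 0 of the 10 genes and for 0% of all genes, and an unadjusted p under 0.05 was found for 0 of the 10, beside 6.09% of all genes. DESeq2 called 0 of the 10 genes here too, and 0.153% of all genes.

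The study stained Ccr7 protein as a macrophage marker in all groups, and 6.4/aFGF was therefore also set against the mean of the other 6 groups. At the RNA level Ccr7 was 0.23 higher (SE 0.340) with a 95% interval from -0.49 to 0.95 (edgeR adjusted p = 0.990). None of the 10 genes differed past the threshold, and Ciita came nearest at -0.70 (SE 0.349, adjusted p = 0.879). Calls were made for 0 of the 10 genes and for 0% of all genes, an unadjusted p under 0.05 was found for 0 of the 10, beside 5.66% of all genes, and DESeq2 called 0 of the 10 and 0.0481% of all genes.

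**Figure D3:**
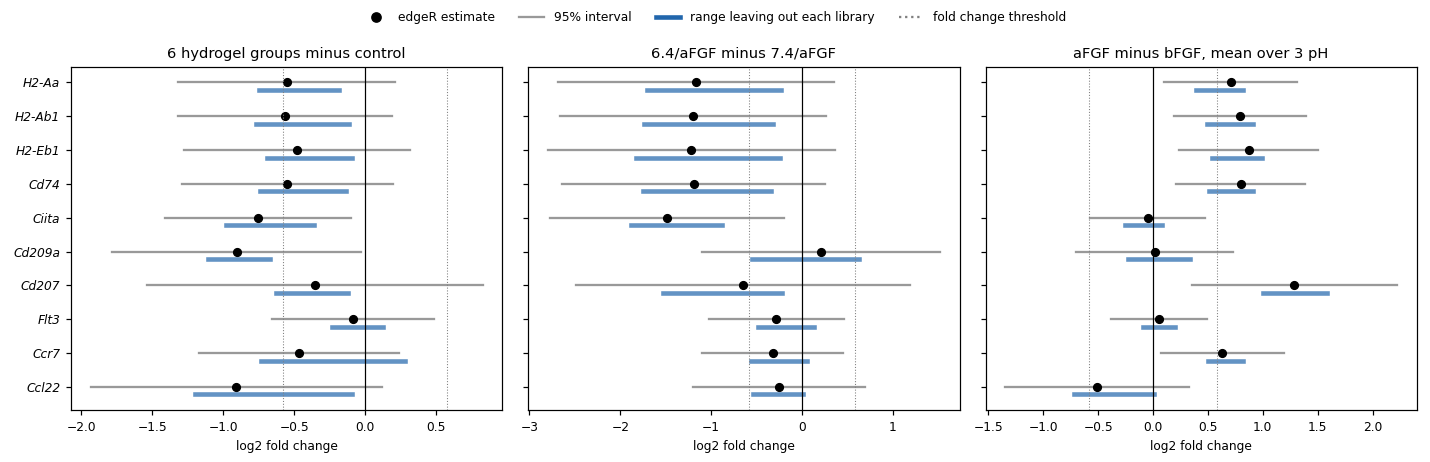
Log2 fold changes of the 10 genes (points), their 95% intervals (grey) and the range when each library is left out in turn (blue) for the hydrogels against control, 6.4/aFGF against 7.4/aFGF and aFGF against bFGF over the 3 pH values, with dotted lines at the fold change threshold of 0.58. The class II genes, Cd207 and Ccr7 lie above 0 in the right panel, with intervals that start at 0.07 to 0.35, and Ciita, Cd209a and Flt3 lie near 0, at -0.05, 0.02 and 0.06.

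At matched pH and averaged over the 3 pH values, the aFGF groups had higher levels than the bFGF groups of the class II genes, Cd207 and Ccr7, and none passed the adjusted threshold. Cd207 differed by 1.29 (SE 0.443, adjusted p = 0.0700), H2-Eb1 by 0.87 (SE 0.298, adjusted p = 0.0687), Cd74 by 0.80 (SE 0.280, adjusted p = 0.0749), H2-Ab1 by 0.79 (SE 0.285, adjusted p = 0.0812), H2-Aa by 0.71 (SE 0.287, adjusted p = 0.118) and Ccr7 by 0.63 (SE 0.264, adjusted p = 0.129), all by edgeR. For these 6 genes the aFGF mean was higher at 3 of the 3 pH values. The aFGF libraries of H2-Eb1 ran from 239 to 1909 CPM with a median of 503, the bFGF libraries from 179 to 457 CPM with a median of 310, and 6 of the 9 aFGF libraries were above the highest bFGF library. The same count was 6 of 9 for Cd74, 5 for Cd207, 4 for H2-Ab1, 3 for H2-Aa and 1 for Ccr7. For Ccr7, 9 of the 9 aFGF libraries were above the bFGF median of 11.2 CPM.

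The remaining 4 genes did not share this. Ciita was at -0.05 (95% interval from -0.58 to 0.48), Cd209a at 0.02 (-0.70 to 0.73), Flt3 at 0.06 (-0.38 to 0.49) and Ccl22 at -0.51 (-1.35 to 0.33). For Ciita the mean covers values of both signs, -0.46 at pH 6.4 (SE 0.280, adjusted p = 0.688), 0.90 at pH 7.4 (SE 0.518, adjusted p = 0.466) and -0.58 at pH 8.4 (SE 0.272, adjusted p = 0.274), each by edgeR within that pH. Rfx5, which encodes a subunit of the factor that binds the class II promoter, had a lower level in the aFGF groups, at -0.47 (SE 0.0959, adjusted p = 0.00941), and fell short of the fold change threshold.

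Calls were made for 0 of the 10 genes, beside 3.2% of all genes (231 higher and 275 lower in the aFGF groups). An unadjusted p under 0.05 was found for 6 of the 10, all of them higher, beside 28% of all genes in either direction. The median over the 10 was 0.67, against -0.0016 over all genes tested. As the 4 class II genes moved together, neither value for the 10 rests on 10 independent genes. DESeq2 called 4 of the 10 (H2-Ab1, H2-Eb1, Cd74 and Cd207), with adjusted p of 0.0222 to 0.0343, beside 4.13% of all genes. The replicate 1 of 7.4/aFGF raised the class II values, and without it they were 0.39 for H2-Aa, 0.49 for H2-Ab1, 0.54 for H2-Eb1 and 0.51 for Cd74, Cd207 was at 1.25 and Ccr7 at 0.50, and 3 of the 10 had an unadjusted p under 0.05, beside 24.2% of all genes. Without the 3 libraries that hold many genes high alone, the class II genes were at 0.67 to 0.83, Cd207 at 1.16 and Ccr7 at 0.61, with an unadjusted p under 0.05 for 5 of the 10, beside 25% of all genes.

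Taken pH by pH, the class II differences were larger at pH 7.4 than at the other pH values, and whether they differed between pH values was not tested over the 3. There H2-Eb1 was 1.72 higher with aFGF (SE 0.585, adjusted p = 0.363), Cd207 1.79 higher (SE 0.707, adjusted p = 0.381) and Cd209a was at -0.84 (SE 0.367, adjusted p = 0.390), by edgeR. Of the 10 genes, 5 (the class II genes and Cd207) had an unadjusted p under 0.05, beside 13% of all genes, and 0 were called, beside 0% of all genes. DESeq2 called H2-Eb1, with an adjusted p of 0.0487, and H2-Ab1, just under the threshold, beside 1.48% of all genes. Without the replicate 1 of 7.4/aFGF the class II differences were at 0.56 for H2-Aa, 0.73 for H2-Ab1, 0.74 for H2-Eb1 and 0.64 for Cd74, and these 4 genes had an unadjusted p under 0.05 by edgeR, beside 8.73% of all genes. Without the replicate 1 of 7.4/bFGF, 0 of the 10 did, beside 6.44% of all genes, and H2-Eb1 was at 1.62. All 7 T cell genes had positive values in this contrast as well, with a median of 1.98, 4 at an unadjusted p under 0.05 and 0 called, and their part in the class II difference was not tested.

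At pH 8.4 Ccr7 was 1.02 higher with aFGF (SE 0.280, edgeR adjusted p = 0.137), Cd207 was 1.48 higher (SE 0.517, adjusted p = 0.184), and the class II genes were 0.53 to 0.75 higher. Of the T cell genes, Cd3d (-0.57), Cd3e (-0.57), Lck (-0.38), Cd3g (-0.20) and Cd4 (-0.15) were lower there with aFGF. Cd2 (0.55) and Cd8a (0.21) were higher, and none of these T cell genes had an unadjusted p under 0.05 by edgeR. Ccr7 and Cd207 were the 2 of the 10 with an unadjusted p under 0.05, a share close to the 21.1% of all genes. Calls by edgeR were made for 0 of the 10 and for 0.00665% of all genes. DESeq2 called Ccr7 at pH 8.4, at 1.01 with an adjusted p of 0.0201, beside 5.27% of all genes. At pH 6.4 the class II genes were 0.09 to 0.25 higher with aFGF, with 95% intervals such as -0.87 to 1.04 for H2-Aa, and an unadjusted p under 0.05 was found for 0 of the 10, beside 8.16% of all genes, with calls for 0 of the 10 and for 0% of all genes. DESeq2 called 0 of the 10 at this pH and 0.666% of all genes. The T cell genes ran from -0.14 for Cd8a to 0.32 for Cd3d at this pH, by edgeR. These values share their libraries with the comparison over all pH values, and the p-values were adjusted within each comparison and not over the 10 comparisons.

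**Figure D4:**
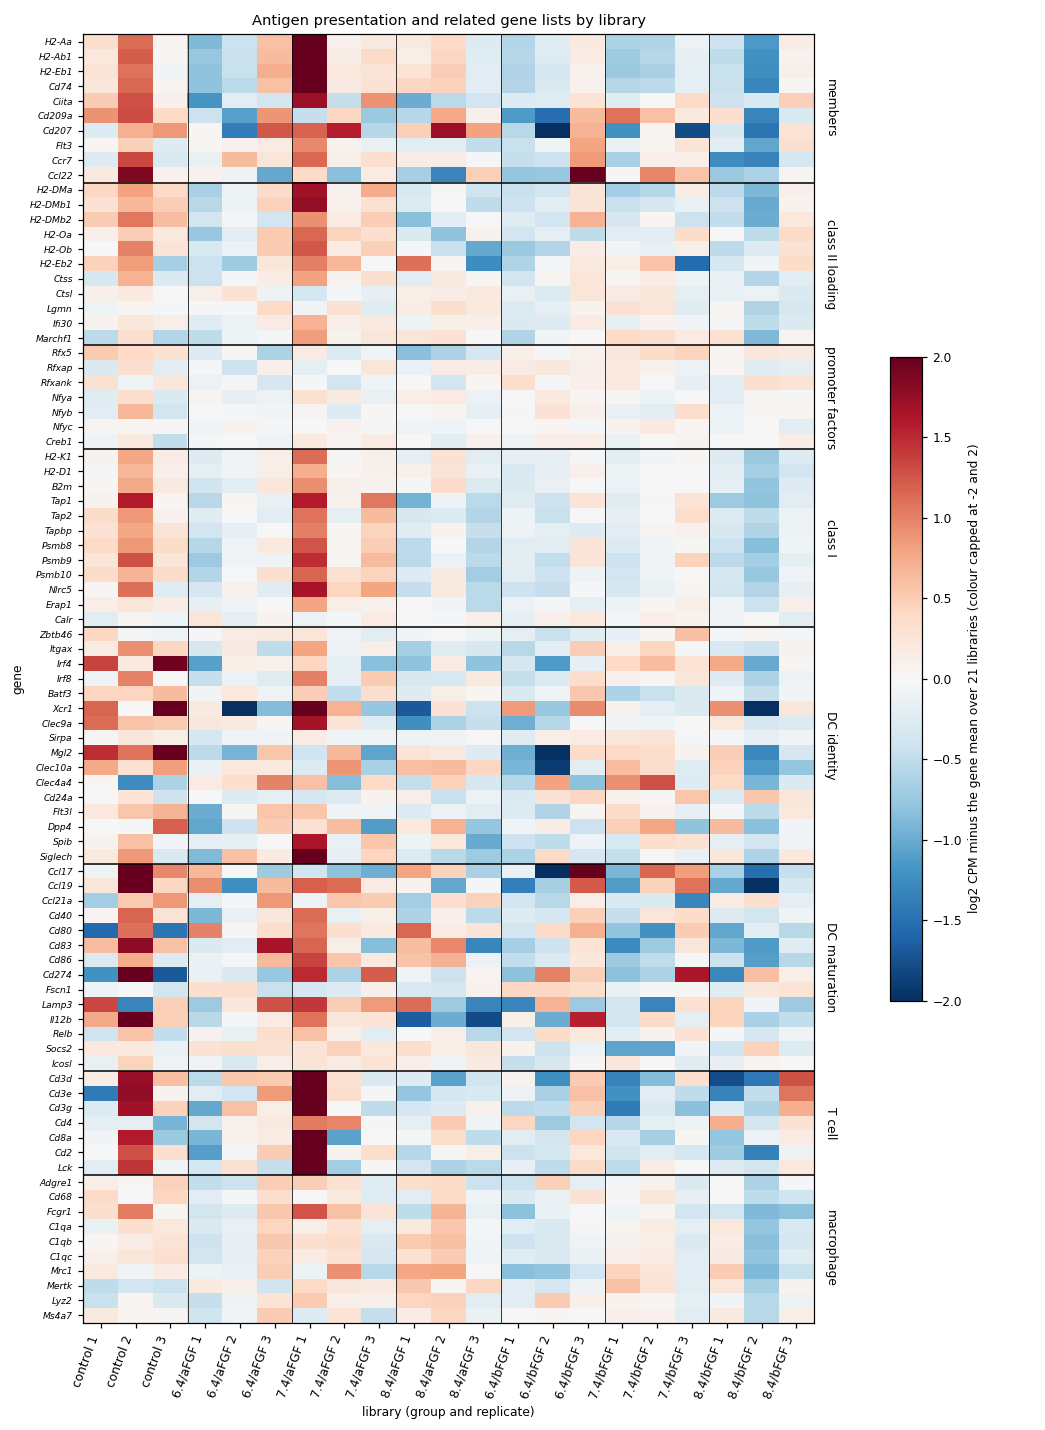
Log2 CPM of the 10 genes and of 7 of the lists, minus the mean of each gene over the 21 libraries, in colour from blue (-2 or less) to red (2 or more), with genes in rows by list and libraries in columns by group. Most class II, loading, class I and T cell genes are red in the replicate 1 of 7.4/aFGF and the control replicate 2, while most promoter factors stay pale.

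The lists around the 10 genes had values of either sign for aFGF against bFGF. All 11 genes of peptide loading and processing in the files were higher with aFGF, with a median of 0.24, as were all 12 genes of the class I pathway, with a median of 0.29, and 0 genes of either list were called. Of the 7 promoter factors, 1 had a positive and 6 a negative value, with a median of -0.03 and 0 called. H2-DMa was 0.53 higher (SE 0.216, adjusted p = 0.121) and H2-DMb1 0.50 higher (SE 0.217, adjusted p = 0.144), by edgeR. Ctss, the cathepsin that trims the invariant chain, was the most abundant of the loading list at 782 FPKM, and H2-Eb2 the least at 0.300 FPKM. In the class I list these were B2m at 2051 FPKM and Nlrc5, the class I counterpart of Ciita, at 6.54 FPKM.

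Cd86, a costimulatory ligand of mature dendritic cells and macrophages, was higher in the aFGF groups than in the bFGF groups. Its mean was 36.7 CPM in the control, 46.6 CPM with aFGF and 25.3 CPM with bFGF. Its log2 fold change was 0.89 (SE 0.206, edgeR adjusted p = 0.0158). The aFGF libraries ran from 30.2 to 84.7 CPM with a median of 48.7, the bFGF libraries from 15.4 to 38.5 CPM with a median of 23.7, and 9 of the 9 aFGF libraries were above the bFGF median. Cd86 was the 1 gene called among the 13 tested of the maturation and migration list, beside 3.2% of all genes. The list had values of both signs. Il12b (-0.50), Ccl17 (-0.32), Fscn1 (-0.21) and Cd274 (-0.16) were lower with aFGF. Cd83 (0.94), Cd80 (0.76), Socs2 (0.56), Ccl19 (0.55), Ccl21a (0.50), Icosl (0.18), Relb (0.08) and Cd40 (0.04) were higher. Of this list Fscn1 was highest at 82.0 FPKM and Lamp3 lowest at 0.0332 FPKM. Cd86 kept its call in 29 of 29 other settings, with adjusted p from 0.000892 to 0.0400.

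Apart from Cd86, 1 of the 10 macrophage genes and 1 of the 5 plasma cell genes were called, and no other listed gene, beside 3.2% of all genes. Fcgr1, the high-affinity IgG receptor of macrophages and monocyte-derived cells, was 0.66 higher with aFGF than with bFGF (SE 0.201, edgeR adjusted p = 0.0443). Mzb1, a chaperone of antibody-secreting cells, was 1.27 higher (SE 0.357, edgeR adjusted p = 0.0332). Mean Fcgr1 was 160 CPM in the control, 141 with aFGF and 88.3 with bFGF, and mean Mzb1 was 0.742, 0.790 and 0.353 CPM. Mzb1 was near the limit of detection, at 0.139 to 1.61 CPM, and the levels of its list of 5 genes ran from Xbp1 at 142 FPKM to Tnfrsf17 at 0.168 FPKM. Fcgr1 kept its call in 12 of 29 other settings and Mzb1 in 15 of 26. All 10 macrophage genes had positive values on the TMM scale, with a median of 0.25, and all 7 T cell genes, with a median of 0.70. Taken pH by pH, as given above, the T cell values were not all positive. The part of macrophages and T cells in the class II difference was not tested. The 16 genes of dendritic cell identity had a median of 0.06, with 10 positive and 6 negative values and 0 called, and the 8 Langerhans cell genes a median of 0.11.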

How the data were processed

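RNA of 21 skin wounds was sequenced by the study from TruSeq stranded mRNA libraries. For each library the authors deposited counts, not normalized, and FPKM values for 18806 genes. The genome build is GRCm39 per the submitters' processing notes, while the aligner, the counter and the annotation are not given in the sources used here. The deposited FPKM values served to compare levels between genes, and counts were used for every test. The tests were the quasi-likelihood tests of edgeR 4.0.16 under R 4.3.3, after TMM scaling and its default filter on low counts. Log2 CPM values carry a prior count of 2. Each comparison was fitted over all genes, on the libraries compared or, for contrasts of more than 4 groups, on all 21. Benjamini-Hochberg adjustment was over all genes tested, with calls at an adjusted p under 0.05 and, for contrasts with a direction, a log2 fold change beyond 0.58. The code was tested on simulated data.

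The 10 genes and the 15 gene lists were chosen with earlier results of these data known. Named beside the 10 genes were list genes that were called, the highest and the lowest of each list by FPKM, and the 5 genes most correlated with the class II mean, Cd207 and Ccr7. Of the genes so named, 1 is not reported here. Mgl2 was added after its values were seen. Gene names were looked up in RefSeq, where 10 of 10 genes matched, and no sequence was used. Groups and replicates came from the labels, which name biological replicates, and no pair of libraries was identical. Alternatives were DESeq2 1.42.0, RLE size factors, other count filters, no fold change threshold, a replicate block, a joint fit over 21 libraries, limma 3.58.1 on FPKM logarithms with a pseudocount of 1 or of 0.1 (genes of mean FPKM 1 or more), and leaving out each library. Fits without 3 libraries that hold many genes high alone, and without the 2 libraries highest in class II, were chosen after seeing the data. The tests set differences between group means against the spread between libraries of a group. As the mouse of each library is not known, this spread may not be that between mice. Total counts of 34362558 to 37817833 per library gave a floor (3 counts) of 0.0767 to 0.0912 CPM, which covers counting error only.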

Additional observations from a re-analysis of the deposited data

How the results depend on the processing

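The count of 0 called genes among the 10 held in every setting run for the hydrogels against control, for both pH contrasts, their interaction, 6.4/aFGF against the other 6 groups and 6.4/aFGF against 6.4/bFGF. DESeq2 called 4 of the 10 for the 7 groups, 4 for aFGF against bFGF over all pH, 2 for 7.4/aFGF against 7.4/bFGF and 1 for 8.4/aFGF against 8.4/bFGF. Leaving out each library gave 0 to 4 calls for aFGF against bFGF over all pH: 4 without the replicate 3 of 7.4/aFGF, 2 without the replicate 3 of 6.4/bFGF and 1 without the replicate 2 of 6.4/aFGF. The direction of small differences depended on single libraries. Leaving out each library, the log2 fold change against control ranged from -0.236 to 0.129 for Flt3 and from -0.736 to 0.282 for Ccr7, and it was 0.0573 and 0.216 without the control replicate 2 and the replicate 1 of 7.4/aFGF together. For 6.4/aFGF against 7.4/aFGF it ranged from -0.548 to 0.631 for Cd209a, from -0.488 to 0.138 for Flt3, from -0.558 to 0.0590 for Ccr7 and from -0.534 to 0.0141 for Ccl22. For aFGF against bFGF it ranged from -0.256 to 0.0841 for Ciita, from -0.231 to 0.339 for Cd209a, from -0.0882 to 0.203 for Flt3 and from -0.720 to 0.0098 for Ccl22, and Cd209a was at -0.0231 and -0.0132 by limma on log2(FPKM + 1) and log2(FPKM + 0.1) and at -0.144 without the 3 libraries that hold many genes high alone. Counts over all genes moved more: 506 called genes for aFGF against bFGF became 212 to 1702, 18 for the 7 groups became 3 to 2050, and 1 for the hydrogels against control became 0 to 1197, with 1189 without the control replicate 2. The 0 called genes became up to 20 for 6.4/aFGF against 7.4/aFGF, 278 for 6.4/bFGF against 7.4/bFGF (without the replicate 3 of 7.4/bFGF), 28 for the interaction, 9 for 6.4/aFGF against the other groups, 119 for 6.4/aFGF against 6.4/bFGF and 264 for 7.4/aFGF against 7.4/bFGF, and the 1 for 8.4/aFGF against 8.4/bFGF became up to 955. With the replicate block, 0 of the 10 genes were called in each comparison, and 403 genes in all for aFGF against bFGF. Of 63 correlations between libraries with the same replicate number, 17 were over 0.1 (range -0.68 to 0.49). Without a reference from libraries of different numbers, these values cannot show whether the replicate numbers pair the libraries. With 3 libraries a group, the class II differences carry 95% intervals over 1 log2 unit wide, and the counts of reads behind the 10 genes were at least 28 in each library. The cause of these changes was not tested.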
